A study of Homo sapiens with 4 samples.

Results

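Integrin subunits and proteins of focal adhesions were followed in TE5, an established human cell line from a squamous cell carcinoma of the oesophagus. The 45 genes were chosen by name: 18 integrin subunits (11 alpha and 7 beta) and 27 other adhesion proteins. All 45 were among the 55764 gene names of the deposited table. Of these, 30 had a mean level of at least 1 FPKM (a fragment count scaled to gene length and library size) over the libraries and were tested, as were 14306 genes in all. The other 15 lay under that level and are described without a test. RNA of whole cultures was sequenced in 4 libraries, 2 from cells given a CMV vector that overexpresses ETS1, a transcription factor, and 2 from cells given the vector backbone, whose genotype is labelled WT. The protocol describes lentiviral delivery. The labels do not say whether a culture was 1 clone or a pool, nor whether replicates came from separate cultures. The p-values therefore measure the spread between these libraries only, which may be technical.

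Integrins are receptors made of an alpha and a beta subunit that bind the extracellular matrix outside the cell. Inside, talin and kindlins bind the beta tail and switch the receptor on, and a complex of integrin-linked kinase, PINCH and parvin, together with vinculin and tensins, ties it to actin. Focal adhesion kinase and Src pass the signal to the scaffolds paxillin and Cas, and through Crk and DOCK1 to the small GTPase Rac. In squamous epithelium, integrin alpha 6 beta 4 holds keratin to the basement membrane at hemidesmosomes through plectin.

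The control libraries held 40356723 and 44119604 reads recovered from the FPKM values and the ETS1 libraries 57269984 and 56502875, so the ETS1 libraries were 1.35 times as deep. The vector's gene was checked first. ETS1 had 0.491 and 0.509 FPKM in the control libraries and 1.84 and 1.87 FPKM in the ETS1 libraries, a ratio of 3.71. Of 6 epithelial markers 3 reached a mean of 1 FPKM: KRT18, the highest, KRT8 and EPCAM. CDH1 averaged 0.569 FPKM in the controls and 0.998 FPKM with ETS1, and KRT19 and KRT7 were near 0. KRT8 went from a mean of 3.89 to 6.53 FPKM, while KRT18 went from 10.4 to 8.32 FPKM. None of 6 squamous markers reached a mean of 1 FPKM, 5 of them being at 0 in both controls, so the squamous identity was not seen in these libraries. Immune and endothelial marker lists summed to at most 0.274 and 0.127 FPKM in any library. The fibroblast list summed to between 2.19 and 3.22 FPKM and was higher in both ETS1 libraries, with COL1A1 at up to 2.88 FPKM its most abundant gene and COL1A2 and DCN at or near 0. The part of these marker levels in the results was not tested. In bulk RNA, fewer cells of a type and less RNA per cell cannot be told apart.

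Integrin and focal adhesion genes were more often higher than lower in the ETS1 libraries. They were chosen with earlier results of these data known, so this split is not independent of the choice. Of the 30 tested, 17 rose and 6 fell at a limma adjusted p under 0.05, and 7 did not pass. ITGA4 and LPP passed the filter only through the ETS1 libraries, where they were high, so their being tested and higher is not independent of the filter. Over the 28 genes with both group means at 1 FPKM or more, 15 rose and 6 fell. Over all tested genes 59.1% passed, 30.7% higher and 28.4% lower. On the log2(FPKM + 1) scale the largest rises among tested genes were those of ITGAV, DOCK1, ITGB1 and ITGA5, and the largest falls those of PARVB and ZYX. All these changes were moderate, from -0.28 to 0.59, with a median of 0.14 against 0.016 over all tested genes and a median size of 0.23 against 0.20. The 2 groups of libraries did not overlap for 26 of the 30 genes, against 82% of all tested genes. Without ETS1 library 2 the counts were 10 higher and 2 lower, and without ETS1 library 1 they were 12 and 2. These fits have fewer samples, and LPP falls under the filter in both. The share of all genes called in these fits is not given here, so a general loss of calls cannot be told apart. The smallest two-sided p of an exact permutation of these libraries is 0.333, so the calls rest on the variance that limma shares among genes.

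**Figure D1:**
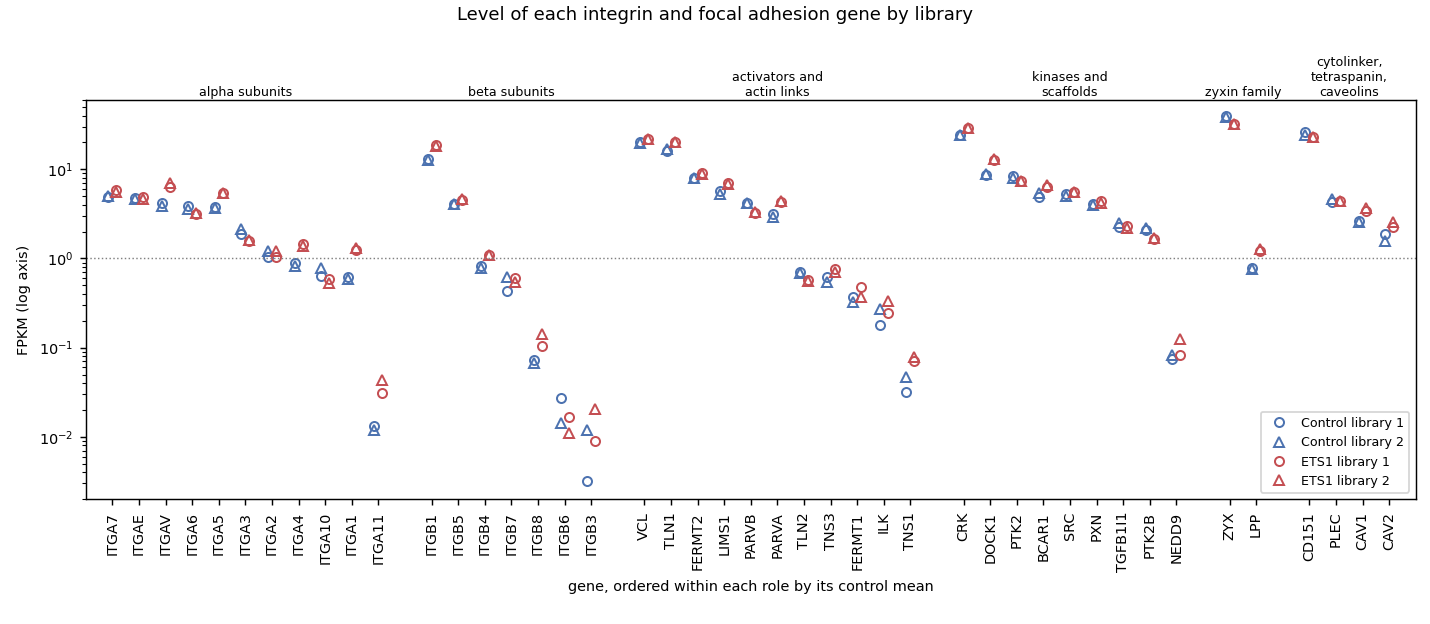
FPKM on a log axis for each of the 44 genes with a value above 0, by role, with blue for control and red for ETS1 libraries, circles for library 1 and triangles for library 2. The dotted line marks the filter of 1 FPKM. ITGB1 stands above the other integrin subunits in every library, and ZYX, CD151, CRK, VCL and TLN1 have the highest FPKM of the other genes.

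ITGB1, the beta subunit shared by most matrix receptors, was the most abundant integrin transcript and rose. It measured 13.1 and 12.8 FPKM in the controls and 18.6 and 18.3 FPKM in the ETS1 libraries. Both ETS1 values lay well above both controls, a ratio of 1.43, and the log2 change was 0.48 (SE 0.031, limma adjusted p 0.000651). Part of its longest transcript in GENCODE 29 is also found in AC022149.1, so some of its reads could be shared. ITGB5, a partner of alpha V that binds vitronectin, had 4.12 and 4.07 FPKM in the controls and 4.51 and 4.64 FPKM with ETS1. It passed narrowly in limma (0.13, adjusted p 0.0391). It did not pass in the authors' deposited table (adjusted p 0.151), nor in any of the 4 fits that left out a library (adjusted p 0.0822 to 0.204).

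The remaining beta subunits were scarce. ITGB4, the hemidesmosome subunit, had 0.827 and 0.790 FPKM in the controls and 1.105 and 1.083 FPKM with ETS1, from 225, 235, 427 and 413 reads. It lay just under the filter and was not tested by limma. In the authors' deposited table ITGB4 rose by 0.35 on the log2 scale (adjusted p 0.0204). ITGB7, a subunit known from lymphocytes, ranged from 0.431 to 0.612 FPKM and overlapped between the groups. In GENCODE 29, 42.1% of its exon bases are shared with ZNF740 on the other strand, and the use of strand in counting is not stated. ITGB8, ITGB6 and ITGB3, whose products all pair with alpha V, were at most 0.142, 0.0273 and 0.0207 FPKM in any library. In GENCODE 29, ITGB3 shares 51.6% of its exon bases with AC068234.1 and ITGB6 20.6% with AC092153.1, each on the same strand, so reads of these genes could have been counted elsewhere or left out. Among the alpha V partners only ITGB1 and ITGB5 were listed above 1 FPKM.

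Among the alpha subunits, ITGAV, ITGA5 and ITGA4 rose, and ITGA3 and ITGA6 fell. ITGAV encodes the subunit common to the vitronectin receptors. It had 4.20 and 3.91 FPKM in the controls and 6.29 and 6.92 FPKM in the ETS1 libraries. The ETS1 values differed more between themselves than the controls did and still lay clear of them, with a log2 change of 0.59 (standard error 0.059, limma adjusted p 0.00158). ITGA5, which pairs with ITGB1 as the main fibronectin receptor, had 3.77 and 3.67 FPKM against 5.46 and 5.49 FPKM, a log2 change of 0.45 (limma adjusted p 0.00106). ITGA4, a receptor subunit for fibronectin and VCAM1 known from leukocytes, was low, with 0.891 and 0.826 FPKM against 1.45 and 1.38 FPKM. Its log2 change was 0.38 (limma adjusted p 0.00679). The control mean was under the filter, and with no filter the limma adjusted p was 0.0340. On the authors' scale, which has no added 1 FPKM, ITGA4 rose by 0.66 in the authors' deposited table (adjusted p 2.05e-06).

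ITGA3 and ITGA6 encode laminin receptor subunits of epithelia. ITGA3 had 1.90 and 2.11 FPKM in the controls and 1.58 and 1.62 FPKM with ETS1, and ITGA6 had 3.88 and 3.59 against 3.17 and 3.26 FPKM. In both genes the ETS1 values were below both controls, with log2 changes of -0.21 and -0.17 and limma adjusted p-values of 0.0351 and 0.0370. With the chromosome median removed, ITGA3 was at -0.23 and ITGA6 at -0.26. With the length and GC trend removed, ITGA3 was at -0.26 and ITGA6 at -0.30 (limma adjusted p in these fits at most 0.0164). Either call was lost in at least 3 of the 4 fits without a library, with adjusted p-values up to 0.136 for ITGA3 and 0.153 for ITGA6. The third laminin receptor subunit, ITGA7, known from muscle, had the highest FPKM of these alpha subunits in the controls. It went the other way, from 4.83 and 5.03 to 5.84 and 5.63 FPKM (0.18, limma adjusted p 0.0160). ITGA7 lost the call with its chromosome's median removed (0.11, adjusted p 0.0634), and without Control library 1 (0.0519), ETS1 library 1 (0.0955) or ETS1 library 2 (0.056).

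The collagen receptor subunits did not move together. ITGA1 had 0.613 and 0.595 FPKM in the controls and 1.23 and 1.32 FPKM with ETS1, from 460, 488, 1315 and 1393 reads. The ratio was 2.12, the largest of any of these genes with reads recovered. Its mean was just under the filter, and in the authors' deposited table it rose by 1.04 on the log2 scale (adjusted p 4.14e-23). PELO on the same strand shares exon bases with ITGA1. ITGA2 had 1.05 and 1.21 FPKM in the controls and 1.04 and 1.21 FPKM with ETS1, a spread within each group larger than the difference between them (limma adjusted p 0.989). With the trend of change on transcript length and GC content removed, ITGA2 was at -0.19 (adjusted p 0.0260). ITGA10 ranged from 0.529 to 0.775 FPKM and did not pass in the authors' deposited table (adjusted p 0.144). ITGA11 was at most 0.0436 FPKM. ITGAE, which with ITGB7 binds E-cadherin, overlapped between groups at 4.59 to 4.85 FPKM (limma adjusted p 0.738).

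The make-up of the receptor transcripts differed between the groups accordingly. FPKM is a level per length of gene, so subunits can be set side by side, though transcript levels say nothing of protein at the surface. The sums cover the 11 alpha and 7 beta subunits followed here and leave out 8 other integrin genes, among them ITGA8 with 3.33 ± 0.0525 FPKM in the controls and 4.20 ± 0.212 FPKM with ETS1, and ITGA2B with 2.59 ± 0.0116 and 3.32 ± 0.121 FPKM (SD, n = 2 each). ITGB1 made up 70.1% ± 0.606 of the summed beta FPKM in the controls and 74.3% ± 0.407 with ETS1, and ITGB5 22.2% ± 0.0224 and 18.4% ± 0.481 (SD, n = 2 each). ITGAV went from 15.4% ± 0.713 to 20.8% ± 1.19 of the summed alpha FPKM, and ITGA6 from 14.1% ± 0.714 to 10.1% ± 0.0878 (SD, n = 2 each). ITGA5 and ITGA6 had nearly equal FPKM in the controls, with ratios of 0.971 and 1.02, and ratios of 1.72 and 1.69 in the ETS1 libraries. The ratio of ITGA6 to its hemidesmosome partner ITGB4 was 4.70 and 4.55 in the controls and 2.87 and 3.01 with ETS1. The summed alpha to summed beta ratio was 1.43 and 1.44 in the controls and 1.26 and 1.29 with ETS1. The shares and ratios above did not overlap between the groups. Others did: ITGB4 made up 4.45% and 4.31% of the beta sum in the controls and 4.43% and 4.37% with ETS1, and ITGA7 18.2% and 19.1% of the alpha sum against 18.5% and 17.6%. They are given as descriptions and were not tested.

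**Figure D2:**
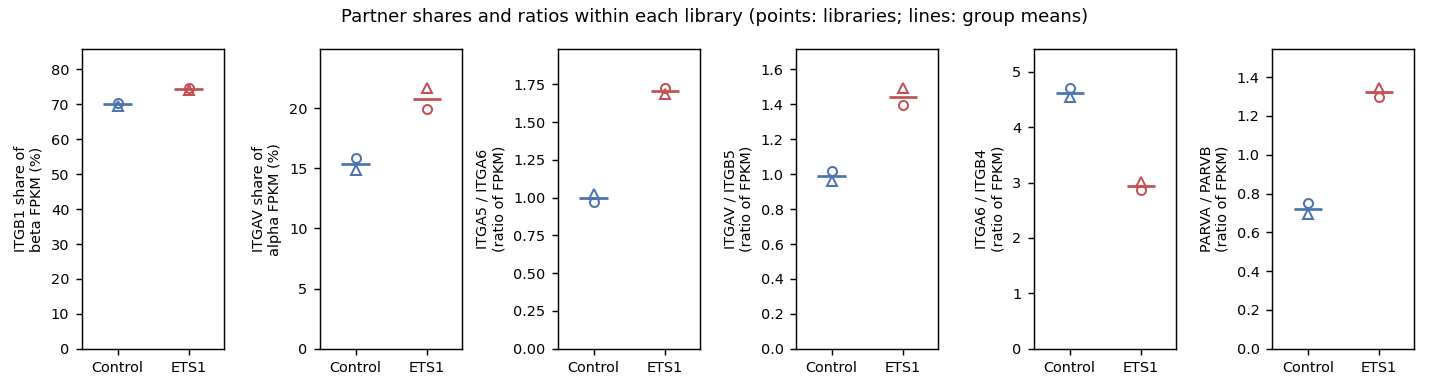
Share of the summed beta or alpha FPKM in percent and ratios of FPKM within each library, with points for the libraries and lines for the group means, all axes starting at 0. The ratio of ITGA5 to ITGA6 moves from about equal FPKM in the controls to 1.70 on average with ETS1, and the ratio of PARVA to PARVB from 0.722 to 1.32.

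Promoters are shown for ITGAV, DOCK1 and ITGB1, the 3 tested genes with the largest rises on the log2(FPKM + 1) scale, because the overexpressed protein is an ETS factor, a family known to bind sites with a GGAA core. All 5 of their RefSeq entries are given, each the 250 bases before a transcript start (GRCh38.p14), and capitals mark matches to CCGGAA or AGGAAG on either strand. The motifs cannot share a GGAA core. The ITGAV entries are at chr2:186589806-186590055 and chr2:186599955-186600204 on the plus strand, the DOCK1 entry at chr10:126905178-126905427 on the plus strand, and the ITGB1 entries at chr10:32958231-32958480 and chr10:32935559-32935808 on the minus strand.
ITGAV, first entry: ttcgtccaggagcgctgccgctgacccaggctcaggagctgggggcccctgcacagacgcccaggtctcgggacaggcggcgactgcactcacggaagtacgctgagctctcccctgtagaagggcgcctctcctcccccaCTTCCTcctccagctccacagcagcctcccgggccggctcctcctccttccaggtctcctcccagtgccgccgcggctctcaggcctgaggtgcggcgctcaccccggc
ITGAV, second entry: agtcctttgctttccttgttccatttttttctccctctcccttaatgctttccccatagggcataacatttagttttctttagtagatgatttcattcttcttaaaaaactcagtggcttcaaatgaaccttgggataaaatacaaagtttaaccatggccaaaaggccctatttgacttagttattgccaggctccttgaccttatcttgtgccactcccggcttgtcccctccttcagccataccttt
DOCK1: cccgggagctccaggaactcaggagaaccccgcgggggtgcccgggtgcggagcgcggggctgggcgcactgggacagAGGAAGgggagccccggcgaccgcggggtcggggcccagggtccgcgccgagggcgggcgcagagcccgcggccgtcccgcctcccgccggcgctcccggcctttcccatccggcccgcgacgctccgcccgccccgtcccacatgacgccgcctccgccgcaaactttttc
ITGB1, first entry: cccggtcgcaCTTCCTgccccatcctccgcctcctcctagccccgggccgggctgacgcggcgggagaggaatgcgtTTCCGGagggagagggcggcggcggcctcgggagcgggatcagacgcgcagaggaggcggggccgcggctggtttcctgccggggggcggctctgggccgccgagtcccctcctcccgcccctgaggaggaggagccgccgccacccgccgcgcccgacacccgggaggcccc
ITGB1, second entry: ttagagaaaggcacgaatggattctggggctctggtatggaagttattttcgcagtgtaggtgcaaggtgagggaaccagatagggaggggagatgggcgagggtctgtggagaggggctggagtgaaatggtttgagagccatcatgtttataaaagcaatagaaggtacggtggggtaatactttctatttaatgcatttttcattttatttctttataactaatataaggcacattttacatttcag
The first ITGAV entry held AGGAAG 109 bases before the start on the reverse strand, and DOCK1 held it 172 bases before the start on the forward strand. The first ITGB1 entry held CCGGAA from 173 bases and AGGAAG from 240 bases before the start, both on the reverse strand. The second entries of ITGAV and ITGB1 held neither motif. Of the genes that rose, 15 had an entry, and 10 of these held a motif in at least 1 entry: BCAR1, CAV1, CRK, DOCK1, ITGAV, ITGB1, ITGB5, LIMS1, LPP and TLN1. CAV2, FERMT2, ITGA4, ITGA5 and VCL held none. All 3 genes that fell and had an entry (ITGA6, PARVB and ZYX) held one. Counted the same way, 53.9% of the 8924 tested genes with an entry held a motif, with 1.47 entries per gene, and 72.7% of the 22 tested integrin and adhesion genes with an entry, with 2.14 entries per gene. More entries give a gene more chances of a match. RefSeq promoter entries were matched for 33 of the 45 genes, 66 entries in all. CCGGAA was in 12.1% of these entries and in 14.5% of all 35116 promoter entries. The shares for AGGAAG were 34.8% and 28.7%. Over tested genes only, CCGGAA was in 10.6% of the 47 entries of the integrin and adhesion genes and in 23.1% of all 13091 entries, and AGGAAG in 36.2% and 27.3%. A match is a description of letters and not a bound site, and binding was not measured here.

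Of the proteins that activate integrins or tie them to actin, 5 of 6 tested genes rose and 1 fell, where 59.1% of all tested genes passed in either direction. TLN1, the talin that binds integrin tails, had 16.0 and 16.7 FPKM in the controls and 20.1 FPKM in each ETS1 library, a log2 change of 0.28 (standard error 0.033, limma adjusted p 0.00237). Its relative TLN2 was scarce and lower, with 0.705 and 0.683 against 0.567 and 0.553 FPKM, and its log2 change in the authors' deposited table was -0.29 (adjusted p 0.0191). TLN2 lies on chromosome 15, where the median change of tested genes was -0.23, on a scale that shrinks the change of a gene as low as TLN2. FERMT2, the kindlin found in most tissues, rose by 0.16 (limma adjusted p 0.0160) and VCL, vinculin, by 0.12 (limma adjusted p 0.0282). Vinculin had 20.4 and 19.7 FPKM in the controls and 21.7 and 22.1 FPKM with ETS1. These 2 calls depended on the fit. With a trend of change on transcript length and GC content removed, FERMT2 was at -0.086 (adjusted p 0.0826) and VCL at -0.014 (adjusted p 0.741). VCL did not pass in the authors' deposited table (adjusted p 0.0702).

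The 2 parvins, which join integrin-linked kinase to actin, changed in opposite directions. PARVA had 3.17 and 2.93 FPKM in the controls and 4.25 and 4.46 FPKM with ETS1 (0.40, limma adjusted p 0.00301). PARVB had 4.23 and 4.22 FPKM in the controls and 3.27 and 3.32 FPKM with ETS1 (-0.28, limma adjusted p 0.00381). PARVB thus had the higher FPKM of the parvins in the controls and PARVA in the ETS1 libraries. LIMS1, which encodes PINCH, their partner, rose from 5.68 and 5.35 to 6.98 and 6.92 FPKM (0.29, limma adjusted p 0.00406). Of its 50-base words, 13.8% also occur in other genes, foremost LIMS3 and LIMS4, so its reads could be shared with these copies.

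ILK, integrin-linked kinase, was listed at only 0.179 and 0.275 FPKM in the controls and 0.247 and 0.332 FPKM with ETS1, and the groups overlapped. In GENCODE 29, 78.5% of its exon bases also lie in exons of other genes on the opposite strand, foremost TAF10. How reads that fit both genes were counted is not stated, so the level of ILK cannot be read from these values. The kindlin of epithelia, FERMT1, was between 0.326 and 0.475 FPKM. The tensins, which bind actin and beta tails, were low: TNS3 ranged from 0.546 to 0.754 FPKM, TNS1 reached at most 0.0793 FPKM, and TNS4 was listed at 0 in every library.

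Of the 8 tested kinases and scaffolds downstream of the receptors, BCAR1, CRK and DOCK1 rose, PTK2 and PTK2B fell, and 3 did not pass. That is 62.5% called, against 59.1% of all tested genes. BCAR1, the Cas scaffold, went from 4.92 and 5.42 to 6.25 and 6.67 FPKM (0.27, limma adjusted p 0.0127). CRK, the adaptor that binds it, had 24.4 and 24.2 FPKM in the controls and 28.9 FPKM in each ETS1 library (0.24, limma adjusted p 0.00199). DOCK1, the exchange factor that CRK brings to Rac, had 8.54 and 8.74 against 12.5 and 13.0 FPKM, with a log2 change of 0.51 (standard error 0.034, limma adjusted p 0.000716). In all these genes both ETS1 values were above both controls. NEDD9, another Cas scaffold, was at most 0.124 FPKM.

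PTK2, focal adhesion kinase, had 8.45 and 7.90 FPKM in the controls and 7.31 and 7.29 FPKM with ETS1 (-0.14, limma adjusted p 0.0370). PTK2B, its relative Pyk2, had 2.06 and 2.19 against 1.67 and 1.70 FPKM (-0.22, limma adjusted p 0.0225). Both lie on chromosome 8, where the median change of 418 tested genes was -0.16. With the chromosome median removed, PTK2 was at 0.021 (adjusted p 0.688) and PTK2B at -0.052 (adjusted p 0.394), so neither passed relative to its chromosome. With the length and GC trend removed instead, PTK2 was at -0.24 (limma adjusted p 0.00153) and PTK2B at -0.26 (limma adjusted p 0.00180). SRC had 5.27 and 4.96 FPKM in the controls and 5.62 and 5.50 FPKM with ETS1 (0.10, limma adjusted p 0.0969). PXN, paxillin, had 4.08 and 3.94 against 4.39 and 4.21 FPKM (0.080, limma adjusted p 0.164). Neither passed, though the groups did not overlap. TGFB1I1, a relative of paxillin, overlapped between the groups at 2.19 to 2.52 FPKM (limma adjusted p 0.545).

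ZYX and LPP, which encode LIM proteins of the zyxin family found at adhesions and on stress fibres, moved apart. ZYX had the highest FPKM of the 45 genes and fell, from 39.6 and 39.0 FPKM to 32.3 FPKM in each ETS1 library (-0.28, standard error 0.026, limma adjusted p 0.00141). LPP was low and rose, from 0.772 and 0.768 to 1.23 and 1.27 FPKM (0.34, limma adjusted p 0.00883). Its control mean was under the filter too, and with no filter the limma adjusted p was 0.0356. On the scale without the added 1 FPKM, LPP rose by 0.66 in the authors' deposited table (adjusted p 2.79e-14).

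CAV1 and CAV2, which form caveolae and interact with integrins, both rose. CAV1 had 2.64 and 2.59 FPKM in the controls and 3.37 and 3.70 FPKM with ETS1 (0.33, limma adjusted p 0.00621), and CAV2 1.86 and 1.57 against 2.27 and 2.56 FPKM (0.33, limma adjusted p 0.0205). CD151, a tetraspanin that binds laminin receptors, had 25.8 and 24.2 FPKM in the controls and 23.0 FPKM in each ETS1 library (-0.11). It missed the threshold in limma (adjusted p 0.0610) and passed in the authors' deposited table (adjusted p 0.0200). CD151 was at -0.15 with the chromosome median removed (limma adjusted p 0.0213) and at 0.012 with the length and GC trend removed. PLEC, plectin, the link from hemidesmosomes to keratin, overlapped between the groups at 4.34 to 4.58 FPKM (limma adjusted p 0.760). PLEC lies on chromosome 8 as well, and with the chromosome median removed it was at 0.15 (adjusted p 0.0249).

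**Figure D3:**
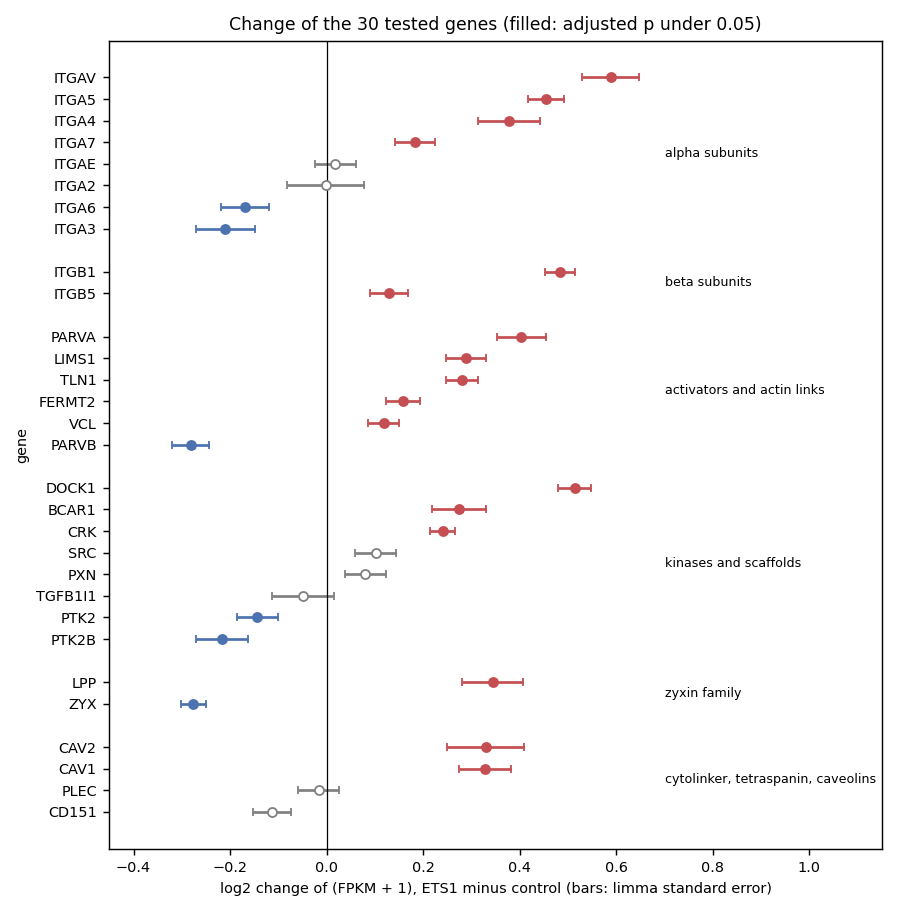
Log2 change of (FPKM + 1), ETS1 minus control, for the 30 tested genes by role, with limma standard errors as bars. Red marks the 17 genes that rose, blue the 6 that fell, and open grey points the 7 that did not pass. PARVA and PARVB, and LPP and ZYX, lie on opposite sides of 0.

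How firmly each gene was called varied. Of the 23 called genes, 13 kept direction and call in every alternative that gave a value for them: CAV1, CRK, DOCK1, ITGA4, ITGA5, ITGAV, ITGB1, LIMS1, LPP, PARVA and TLN1 among the higher, and PARVB and ZYX among the lower. LPP had no value without either ETS1 library, and LPP and ITGA4 were tested only through their levels in the ETS1 libraries. The share of all called genes that keep their call in this way is not given here. With the length and GC trend removed, LPP was at 0.15, LIMS1 at 0.17, PARVA at 0.26 and ITGAV at 0.37, each over 1.5 times smaller. The other 10 lost the call in at least 1 of the 4 fits without a library: BCAR1, CAV2, FERMT2, ITGA3, ITGA6, ITGA7, ITGB5, PTK2, PTK2B and VCL. Without ETS1 library 2, all 10 of these missed the threshold, BCAR1 with an adjusted p of 0.0649 and CAV2 with 0.0962, while their changes there ranged from -0.22 to 0.27. Without ETS1 library 1, FERMT2 had an adjusted p of 0.103 and PTK2B of 0.103. Without Control library 2, CAV2 had 0.0594 and FERMT2 0.0515, and without Control library 1, ITGA6 had 0.122 and PTK2 0.105. The authors' deposited table called 15 of the 17 higher and all 6 lower genes, the exceptions being ITGB5 and VCL, and it calls 51.2% of all its genes with an adjusted p. It also calls 3 of 6 genes under the filter that it holds (ITGA1 and ITGB4 higher, TLN2 lower), where it calls 25.7% of all such genes.

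**Figure D4:**
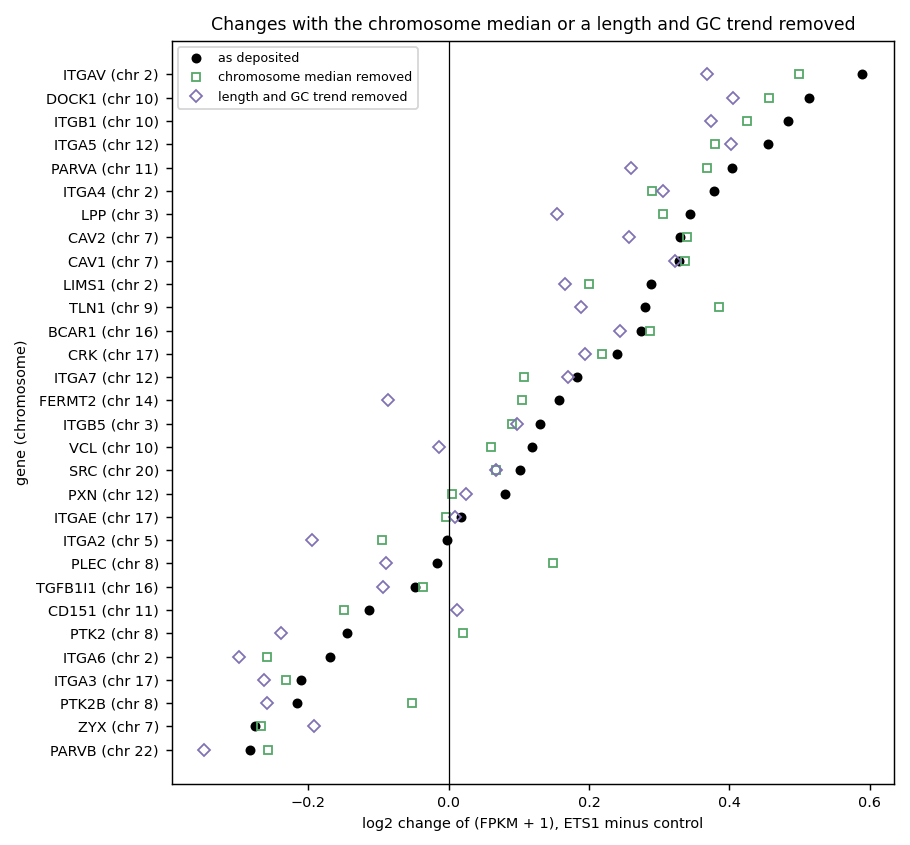
Limma log2 change of (FPKM + 1), ETS1 minus control, for each tested gene with nothing removed (black), with the median of its chromosome removed (green squares) and with a trend on transcript length and GC content removed (purple diamonds). The genes with the largest rises stay above 0 in all 3, at 0.37 to 0.59 for ITGAV, while PTK2 and PLEC on chromosome 8 cross 0 and FERMT2 and VCL cross 0 with the trend removed.

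Other adhesion genes were drawn from 7 lists. Of 74 tested, 35 rose and 14 fell, with a median change of 0.11. The share called was 66.2%, against 59.1% of all tested genes, of which 30.7% rose and 28.4% fell. Among actin linkers 8 of 16 rose and 3 fell. FLNC and FLNA, which crosslink actin and bind beta tails, rose by 0.74 and 0.69. FLNA went from 21.1 and 22.7 to 35.7 and 36.1 FPKM. EVL, an actin-filament elongation factor, fell by 0.64 (limma adjusted p for these 3 genes at most 0.000602).

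Among kinases, phosphatases and GTPase regulators 15 of 23 rose and 3 fell, a share called of 78.3% against 59.1% of all tested genes. ARHGEF6, which activates Rac at adhesions, rose by 0.54, the kinase ROCK1, which promotes actomyosin contraction, by 0.48 and the Src-family kinase LYN by 0.45. With the length and GC trend removed, ARHGEF6 was at 0.40, ROCK1 at 0.29 and LYN at 0.34. Among other adaptors and LIM proteins 3 of 16 rose and 3 fell, a share called of 37.5%, with SHC1 at 0.43, SHARPIN at -0.36 and AJUBA at 0.28. SHARPIN, an inhibitor of integrins, lies on chromosome 8, and with the chromosome median removed it was at -0.19 (adjusted p 0.00338). Of 8 tetraspanins 2 rose, with CD9 at 0.40, and 4 fell, among them TSPAN4 at -0.30 and TSPAN3 at -0.26. TSPAN3 lies on chromosome 15, and with the chromosome median of -0.23 removed it was at -0.025 (adjusted p 0.636). Of 7 caveolar genes 4 rose and 1 fell. EHD2, which stabilises caveolae at the membrane, went from 0.568 and 0.571 to 3.15 and 3.12 FPKM, a log2 change of 1.40. It was tested only because of its level in the ETS1 libraries, and with no filter the limma adjusted p was 0.00759. Among the others PACSIN2 was at 0.29 and EHD4 at -0.37. EHD4 lies on chromosome 15 and was at -0.14 with the chromosome median removed (adjusted p 0.0235).

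Of the hemidesmosome list only DST and LAMA3 reached the filter. LAMA3, the alpha chain of the laminin that ITGA6 and ITGB4 bind, rose by 0.57 (limma adjusted p 0.000730), and DST changed by 0.025 (limma adjusted p 0.596). LAMB3, the beta chain of that laminin, was under the filter and is named after its values were seen. It had 0.246 ± 0.0704 FPKM in the controls and 1.12 ± 0.106 FPKM with ETS1 (SD, n = 2 each). COL17A1, KRT5 and KRT14 were at or near 0. Of the 8 integrins outside the 45 genes, ITGA2B and ITGA8 were tested and each rose by 0.26, while ITGB2 and its leukocyte partners were at most 0.522 FPKM. With the length and GC trend removed, ITGA2B was at 0.29 and ITGA8 at 0.14.

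**Figure D5:**
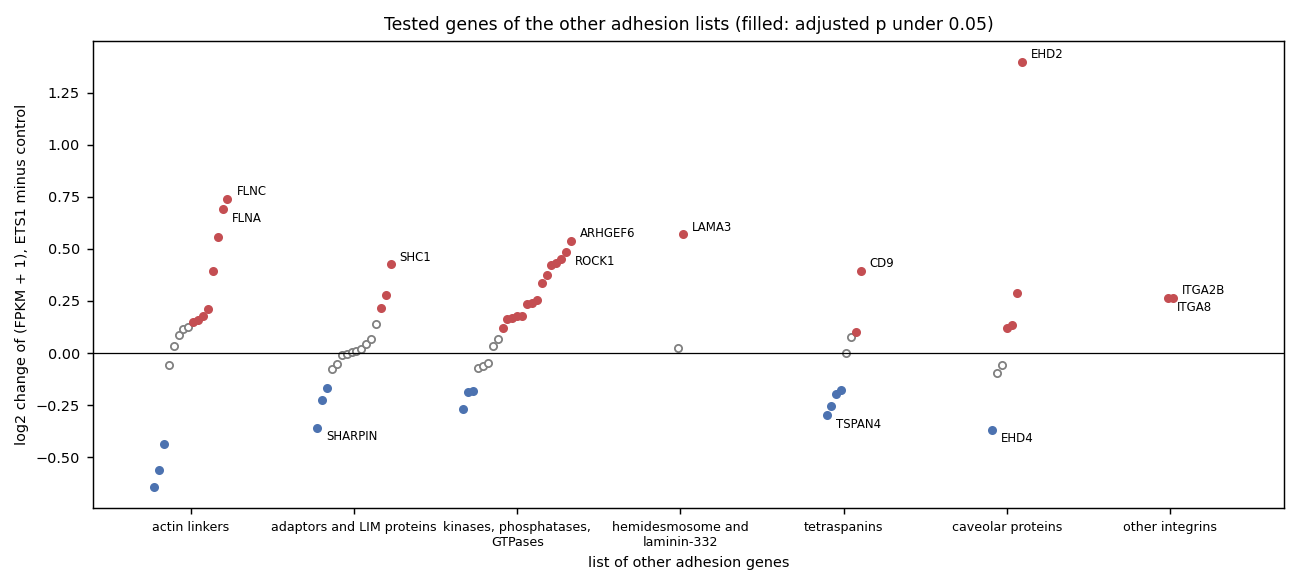
Log2 change of (FPKM + 1), ETS1 minus control, for the 74 tested genes of the other adhesion lists, red for genes that rose, blue for genes that fell and open grey for those that did not pass. FLNC and FLNA lead the actin linkers and EHD2 stands highest of all, at 1.40.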

How the data were processed

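RNA of 4 TE5 libraries was measured. The deposited FPKM values were computed by the authors. Reads were aligned with HISAT2 to hg38 and counted with HTSeq, per the submitters' processing notes. Annotation and strand setting are not given in the sources used here. The authors' comparison table (DESeq2, per the submitters' processing notes) holds a mean normalized count (a signal over all libraries), log2 fold changes, and p-values. Genes with a mean of at least 1 FPKM were tested on log2(FPKM + 1) with limma 3.58.1 in R 4.3.3 (group term, mean-variance trend, two-sided, Benjamini-Hochberg over 14306 genes, threshold 0.05). With 2 residual degrees of freedom, the variance prior added 2.84. The fit was also run on simulated reads in which few genes changed. Most tested genes were called in the real data, so that run does not measure how often the calls here are false. This scale understates changes of low genes. Reads were recovered as the whole numbers that FPKM and mean normalized counts imply: 99.3% of values of genes with low and 99.9% of genes with high mean counts lay within 0.05 of a whole number. The 30 tested integrin and adhesion genes had 284 to 11576 reads per library. Positions come from GENCODE 29. Genes were named by role, with the 3 largest called changes per other list. Members and lists were chosen with earlier results of these data known. Protein sequences were not used here. Alternatives are given at the end.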

Additional observations from a re-analysis of the deposited data

How the results depend on the processing

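With a mean of at least 5 FPKM, 14 of the genes were tested, with 10 higher and 3 lower. With no filter 44 were tested, with 13 higher and 2 lower. Without a library in turn, 10 to 16 were higher and 2 to 5 lower. Among the other adhesion genes 35 to 42 were called without a library, against 49. The replicate block left 15 higher and 2 lower (41 of the other adhesion genes). The numbers are not known to pair samples: replicate differences of the groups had a correlation of -0.046 across genes. The share of all genes called in each of these alternatives is not given here. The higher filter tests fewer genes and the fits without a library have fewer samples. For the other losses the cause was not tested. The ITGB1 share difference was 3.79 to 4.65 percentage points, and that of the ITGA5 to ITGA6 ratio 0.681 to 0.733, without a library.

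Of 372 single-gene values under alternatives, 302 kept direction and side of the threshold, 51 lost the threshold, 7 gained it and 12 changed sign. With the chromosome median removed, ITGAE was at -0.0036, PTK2 at 0.021 and PLEC at 0.15. With the length and GC trend removed, an alternative chosen after seeing the data, VCL was at -0.014, FERMT2 at -0.086 and CD151 at 0.012, and ITGA2 passed at -0.19. Without a library in turn, ITGA2 ranged from -0.062 to 0.059 (0.054 without Control library 2, 0.059 without ETS1 library 1), ITGAE from -0.013 to 0.048, TGFB1I1 from -0.11 to 0.013 and PLEC from -0.048 to 0.016. The authors' deposited table gives ITGAE -0.0011. Voom on recovered reads called 17 higher and 7 lower. With the chromosome median removed 15 were higher and 5 lower, and with the length and GC trend removed 14 were higher and 7 lower. LPP gave no value without either ETS1 library, being under the filter there.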
